A study of Mus musculus with 7 samples.

Results

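De novo lipogenesis is the route by which the liver turns surplus carbon into fatty acids, and 10 genes of its core were followed mouse by mouse. The genes were chosen by name for their place in the route, Acly and Acss2 for acetyl-CoA, Acaca and Acacb for malonyl-CoA, Fasn and Scd1 for the fatty acid chain, Me1 for reducing power, and Srebf1, Mlxipl and Thrsp for control of the others. All 10 were found among the 23347 genes of the liver count table, and all 10 had enough counts to be among the 15179 genes tested.

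Liver RNA came from 7 mice, 4 B4galt1 flox/flox and 3 carrying the label B4galt1 hep-/-, each sequenced as 1 library, and the question put to these genes was whether their mRNA differed between the groups. Per the study's methods, male mice of C57BL/6 background aged 6 to 8 weeks at the start were used. Animals of both groups carry B4galt1, which encodes a galactosyltransferase of the Golgi, flanked by loxP sites. In the B4galt1 hep-/- mice an Alb-Cre transgene, whose albumin promoter acts in hepatocytes, is meant to remove it, while the controls are their B4galt1 flox/flox littermates, which the labels call WT. Both groups ate the CDAHFD, a high-fat diet without choline on which mice develop steatohepatitis, over 15 weeks. Chow-fed livers were not analysed here, so no level without the diet is given.

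In the cytosol, ATP citrate lyase (Acly) splits citrate exported from mitochondria and acetyl-CoA synthetase (Acss2) activates acetate, and both give acetyl-CoA. Acetyl-CoA carboxylase makes malonyl-CoA from it, fatty acid synthase (Fasn) joins the units into palmitate with NADPH, part of which malic enzyme (Me1) supplies, and stearoyl-CoA desaturase (Scd1) inserts a double bond. Insulin acts on the route mainly through SREBP-1c, a product of Srebf1, and sugar through ChREBP, the product of Mlxipl.

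B4galt1 itself (NCBI gene 14595) was at 48.7, 53.0, 49.2 and 51.6 CPM (counts scaled to library size after TMM adjustment) in B4galt1 flox/flox replicates 1 to 4. In the livers labelled B4galt1 hep-/- replicates 1 and 2 were at 28.4 and 23.9 CPM and replicate 3 was at 53.7 CPM. On this scale replicate 3 lay above every control for the targeted gene, against its label. On FPKM (fragments per kilobase of gene length, scaled to the library's total) it was at 11.9, just below the controls at 12.2 to 14.0, while labelled replicates 1 and 2 were at 6.47 and 6.52. The group difference did not pass on counts (log2 fold change -0.52, adjusted p = 0.181 from edgeR with Benjamini-Hochberg adjustment). It passed on log2(FPKM + 1) (-0.67, adjusted p = 0.0389 from limma) and on log2(FPKM + 0.1) (-0.73, adjusted p = 0.0382 from limma). On those scales the median over all genes tested was itself -0.14 and -0.18, beside 0.02 on counts, so the labelled livers read lower there in general. On counts without labelled replicate 3 the difference in B4galt1 passed (-0.96, adjusted p = 0.0139 from edgeR). The groups are therefore named by their labels, every direction given here is that of the libraries carrying the label, and the main results are also given without replicate 3. Total counts were 37838654 to 39668509 in B4galt1 flox/flox livers and 30608271 to 34586588 in the livers labelled B4galt1 hep-/-. Mitochondrially encoded transcripts took 3.88% to 8.0% of counts in the first group and 14.4% to 22.6% in the second, without overlap. Leaving them out of the counts changed no call for Acly, Acss2 or Mlxipl.

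Calls required both an absolute log2 fold change above 0.58 and an adjusted p below 0.05. Of the 10 lipogenic genes, 2 were called lower in the livers labelled B4galt1 hep-/- (Acly and Acss2) and 1 was called higher (Mlxipl). Over all genes tested, 7.83% were called lower and 8.0% higher, 1189 and 1215 genes, so counts of 2 and 1 among 10 lie close to the background and say nothing particular about the group as a whole. On FPKM the split over all genes was uneven, with 1733 lower and 561 higher among 10914 genes tested by limma on log2(FPKM + 1), and the same 3 lipogenic genes were called. Without replicate 3 labelled B4galt1 hep-/-, 2 of the 10 were called lower and 0 higher. The CPM values of the groups did not overlap for the same 3 genes, lower for 2 and higher for 1, where 15.0% of all genes were apart with the labelled group lower and 13.6% with it higher. The median log2 fold change of the 10 genes was -0.24, beside 0.02 over all genes tested, with 6 of them below 0 and 4 above.

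**Figure D1:**
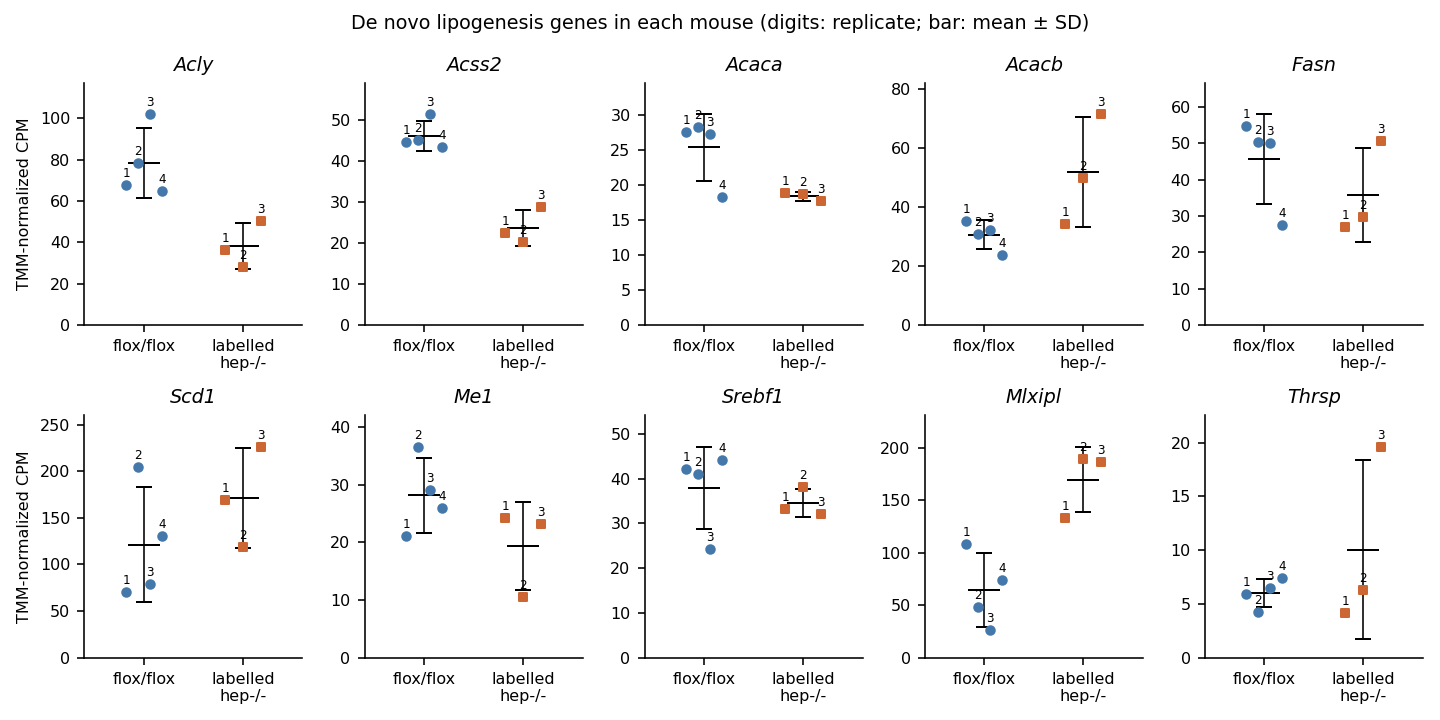
TMM-normalized CPM of the 10 genes in each mouse, with 4 B4galt1 flox/flox livers as blue circles and 3 livers labelled B4galt1 hep-/- as orange squares. Digits give the replicate and bars the mean ± SD. The groups are separate for Acly and Acss2, with the labelled livers lower, and for Mlxipl, with them higher, and they overlap for the other 7 genes.

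In RNA of a whole liver, fewer cells of a type and less RNA per cell cannot be told apart. Markers of other cells moved with the groups in part. Of 7 macrophage markers, 4 were lower (Adgre1, Cd68, Lyz2 and Trem2), and the summed level of all 7 was 1059 to 2358 CPM in controls and 485 to 544 CPM in the labelled livers, without overlap. Their part in the results for the lipogenic genes was not tested. Of 8 hepatocyte markers, 0 passed in either direction, and their summed level, to which Alb gave the most, overlapped, at 89470 to 129900 CPM in controls and 100100 to 159000 CPM in the labelled livers. Among these 8, the groups were apart for Tdo2, at 1123 to 2294 CPM in controls and 304 to 1116 CPM in the labelled livers (log2 fold change -1.31, adjusted p = 0.0566 from edgeR), and in the other direction for Apoa1, at 7168 to 13927 CPM and 14905 to 18641 CPM (0.70, adjusted p = 0.109 from edgeR). Fat tissue also expresses the lipogenic genes, and the adipocyte markers Adipoq and Plin1 had 0 to 1 counts in every liver, with 0 to 6 for Retn and 0 to 7 for Cfd. The other adipocyte markers in the table were Cidec, which had 3403 to 7171 counts and did not pass (log2 fold change -0.22, adjusted p = 0.555 from edgeR), and Adrb3. Adrb3 was at 0.914 to 7.32 CPM in controls and at 9.06 to 13.6 CPM in the labelled livers, without overlap, and did not pass (log2 fold change 1.48, adjusted p = 0.0772 from edgeR). The part of adipocyte RNA in the results was not tested. The stellate cell list gave 1 lower gene of 7 (Lum), the endothelial list 1 lower of 6 (Kdr), the erythroid list 1 lower (Alas2) and 1 higher (Hba-a1) of 3 tested, and the cholangiocyte and lymphocyte lists 0 of 6 each.

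The sequences upstream of the start sites are shown for the 3 genes that passed, the windows of 250 bases that end just before each start, from RefSeq on GRCm38.p6. The table of starts used here matched 9 of the 10 genes with 13 starts in all. The counts were made on another build, GRCm39 per the submitters' processing notes, and these positions were not converted. Capitals mark matches to 4 motifs searched on both strands, the sterol regulatory element TCACNCCAC, the E-box CACGTG, the CCAAT box CCAAT and the GC box GGGCGG, none of which contains another. Acly lies on the minus strand with its window at chr11:100528001-100528250, and Acss2 on the plus strand at chr2:155517793-155518042. Mlxipl, on the plus strand, has 2 starts, with windows at chr5:135089640-135089889 (upstream start) and chr5:135106641-135106890 (downstream start).
Acly: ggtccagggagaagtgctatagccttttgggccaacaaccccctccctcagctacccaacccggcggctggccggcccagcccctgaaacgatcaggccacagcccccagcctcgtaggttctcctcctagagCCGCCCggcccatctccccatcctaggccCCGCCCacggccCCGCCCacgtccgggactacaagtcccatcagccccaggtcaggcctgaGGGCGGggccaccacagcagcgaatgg
Acss2: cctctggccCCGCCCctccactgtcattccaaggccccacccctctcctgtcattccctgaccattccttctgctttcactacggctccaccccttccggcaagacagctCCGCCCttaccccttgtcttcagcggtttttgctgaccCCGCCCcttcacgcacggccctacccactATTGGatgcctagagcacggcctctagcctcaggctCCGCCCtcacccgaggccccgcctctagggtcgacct
Mlxipl, upstream start: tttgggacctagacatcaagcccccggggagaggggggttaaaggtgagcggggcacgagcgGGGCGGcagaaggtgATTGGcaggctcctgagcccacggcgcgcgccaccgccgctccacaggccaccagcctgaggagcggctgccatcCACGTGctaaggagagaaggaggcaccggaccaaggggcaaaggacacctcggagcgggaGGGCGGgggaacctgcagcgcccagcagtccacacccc
Mlxipl, downstream start: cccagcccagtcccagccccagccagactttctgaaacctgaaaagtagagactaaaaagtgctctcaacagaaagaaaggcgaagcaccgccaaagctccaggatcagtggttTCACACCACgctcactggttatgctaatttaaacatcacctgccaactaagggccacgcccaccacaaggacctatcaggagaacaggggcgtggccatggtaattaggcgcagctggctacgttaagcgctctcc

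The window of Acly held 4 GC boxes and that of Acss2 held 4 GC boxes and 1 CCAAT box. Of all 32851 promoter windows of this length, 32.7% held a GC box and 33.8% a CCAAT box. The upstream window of Mlxipl held the only E-box among the 13 windows, 98 bases before the start, a motif present in 6.02% of all windows. Its downstream window held the only sterol regulatory element, 136 bases before the start, which 1.05% of all windows held. The 2 starts of Mlxipl lie 17001 bases apart, and the counts are summed over the gene, so they do not tell transcripts from these starts apart. A match is a description of letters, and its absence elsewhere says only that these letters were not in the window.

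The acetyl-CoA producers were the lipogenic genes that fell. Acly (NCBI gene 104112) was measured at 67.9, 78.5, 102 and 65.0 CPM in B4galt1 flox/flox replicates 1 to 4 and at 36.2, 28.3 and 50.3 CPM in replicates 1 to 3 labelled B4galt1 hep-/-. The highest labelled liver, replicate 3, was below the lowest control. The means were 78.4 ± 16.8 CPM (SD, n = 4) and 38.2 ± 11.2 CPM (SD, n = 3), and Acly was 2.05-fold lower in the labelled livers (log2 fold change -1.04, SE 0.24, adjusted p = 0.018 from edgeR with Benjamini-Hochberg adjustment). Acly passed in 18 of 18 alternative fits, with an adjusted p of up to 0.0499, and at -1.29 without replicate 3 labelled B4galt1 hep-/-.

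Acss2 (NCBI gene 60525) had the narrowest control range of the 10 genes. Its CPM was 44.6, 45.0, 51.4 and 43.3 in the 4 controls and 22.4, 20.1 and 28.6 in the 3 labelled livers. Every labelled liver was far below every control, and the highest control was 1.19-fold above the lowest. The fall was 1.94-fold (log2 fold change -0.96, SE 0.19, adjusted p = 0.0089 from edgeR), it passed in 18 of 18 alternative fits and it was -1.13 without replicate 3. Gss, the glutathione synthetase gene on the opposite strand, overlaps Acss2 in the GENCODE annotation of GRCm38, and whether the counting used strand is not given in the sources used here, so reads of the shared part could be split. Gss was at 113 to 159 CPM in controls and at 109 to 150.0 CPM in the labelled livers, and its log2 fold change was -0.11 (edgeR adjusted p = 0.747).

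Both acetyl-CoA carboxylase genes were measured, and they lay on opposite sides of 0, although neither passed the test. Acaca, which encodes the cytosolic carboxylase that feeds fatty acid synthesis, was at 27.7, 28.3, 27.3 and 18.3 CPM in B4galt1 flox/flox replicates 1 to 4. The labelled livers gave 18.9, 18.7 and 17.7 CPM. The labelled livers were close to one another, and control replicate 4 lay among them, so the groups overlapped (log2 fold change -0.46, SE 0.20, adjusted p = 0.125 from edgeR). Acaca passed in 0 of 18 alternative fits, with log2 fold changes of -0.59 to -0.39.

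Acacb, which encodes the carboxylase at the outer mitochondrial membrane whose malonyl-CoA restrains fatty acid import through CPT1, was at 35.3, 30.8, 32.4 and 23.8 CPM in controls. Its CPM was 34.2, 50.0 and 71.6 in replicates 1 to 3 labelled B4galt1 hep-/-. Replicate 1 lay just under the highest control and replicates 2 and 3 lay above all of them. The log2 fold change of 0.76 (SE 0.24) had an adjusted p of 0.0538 from edgeR, just short of the threshold. Acacb passed in 7 of 18 alternative fits, among them DESeq2 and both other count normalizations, and its value ran from 0.45 without replicate 3 (adjusted p = 0.202 from edgeR) to 0.98 without replicate 1 (adjusted p = 0.0271 from edgeR).

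Because a ratio of 2 genes within a mouse does not depend on how libraries are scaled, 3 ratios of FPKM were compared. Acacb over Acaca was 1.34, 1.14, 1.25 and 1.36 in the 4 controls and 1.90, 2.80 and 4.25 in the 3 labelled livers. The groups were apart, and the control values were nearly alike. The mean log2 ratio was 0.34 ± 0.12 (SD, n = 4) in controls and 1.50 ± 0.58 (SD, n = 3) in the labelled livers, a 2.23-fold difference with a two-sided exact permutation p of 0.0286, the smallest that 4 mice against 3 allow. Adjusted over the 3 ratios by Benjamini-Hochberg, the exact p was 0.0857, so the ratio did not pass at 0.05.

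**Figure D2:**
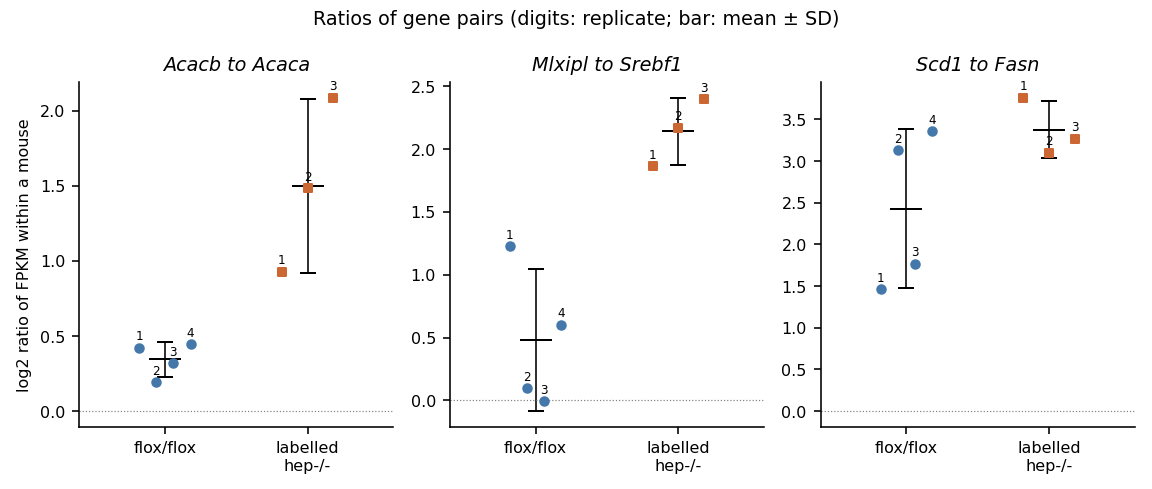
Log2 ratio of FPKM of gene pairs within each mouse, by group, with replicate digits and mean ± SD. Acacb to Acaca and Mlxipl to Srebf1 are higher in all 3 livers labelled B4galt1 hep-/- than in all 4 controls, and Scd1 to Fasn overlaps.

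The genes of the synthase and desaturase steps did not pass the test. Fasn was at 54.9, 50.5, 50.0 and 27.5 CPM in B4galt1 flox/flox replicates 1 to 4 and at 26.9, 29.8 and 50.6 CPM in the labelled livers. Control replicate 4 lay with labelled replicates 1 and 2, and labelled replicate 3 lay with the other controls. The log2 fold change was -0.35 (SE 0.28, adjusted p = 0.404 from edgeR), and with 1 mouse left out it ran from -0.70 without labelled replicate 3 to -0.20 without labelled replicate 1, with 0 of 18 alternative fits calling Fasn.

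Scd1, the desaturase gene of liver, varied most among controls after Mlxipl. Controls gave 70.0, 205, 79.0 and 131 CPM, and the labelled livers 169, 118 and 226 CPM. The highest control was 2.92-fold above the lowest, and the groups overlapped widely (log2 fold change 0.50, SE 0.35, adjusted p = 0.351 from edgeR). With 1 mouse left out the value ran from 0.24 without labelled replicate 3 to 0.87 without control replicate 2, and 0 of 18 alternative fits called Scd1. Scd1 over Fasn was 2.75, 8.73, 3.41 and 10.3 in the 4 controls and 13.5, 8.57 and 9.64 in the 3 labelled livers, as ratios of FPKM. Control replicates 2 and 4 were near the labelled livers and replicates 1 and 3 far below them, and the difference of 0.95 in log2 ratio had a two-sided exact permutation p of 0.257.

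Me1 was at 21.1, 36.6, 29.1 and 26.0 CPM in B4galt1 flox/flox livers and at 24.3, 10.5 and 23.2 CPM in those labelled B4galt1 hep-/-. Labelled replicate 2 was the lowest of all mice, while replicates 1 and 3 lay above the lowest control. The log2 fold change was -0.55 (SE 0.29, adjusted p = 0.213 from edgeR), and 0 of 18 alternative fits called the gene. With 1 mouse left out it ran from -0.76 without labelled replicate 1 to -0.25 without labelled replicate 2, and it was -0.71 without labelled replicate 3. On FPKM the groups were just apart, with 6.59 in the lowest control and 6.0 in the highest labelled liver. That scale reads lower in the labelled livers in general, with a median over all genes of -0.14 on log2(FPKM + 1).

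Of the regulators, Mlxipl rose and Srebf1 did not pass. Mlxipl (NCBI gene 58805) was at 109, 48.5, 26.6 and 74.1 CPM in B4galt1 flox/flox replicates 1 to 4 and at 134, 189 and 187 CPM in the labelled livers. All labelled livers were above all controls, but the controls themselves spanned a 4.09-fold range, with replicate 1 nearest to the labelled group. On FPKM the groups touched, with 23.0 in control replicate 1 and 22.3 in labelled replicate 1. The rise was 2.63-fold (log2 fold change 1.40, SE 0.37, adjusted p = 0.0287 from edgeR). Mlxipl passed in 14 of 18 alternative fits. It stayed above 1.1 but missed the threshold when control replicate 2 (adjusted p = 0.0932), control replicate 4 (0.0524), labelled replicate 2 (0.0631) or labelled replicate 3 (0.0660) was left out.

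Srebf1, whose products SREBP-1a and SREBP-1c are counted together here, was at 42.2, 41.1, 24.2 and 44.2 CPM in controls. The labelled livers gave 33.3, 38.1 and 32.2 CPM, all within the range of the controls, of which replicate 3 stood low. The log2 fold change was -0.13 (SE 0.22, adjusted p = 0.702 from edgeR), and it ranged from -0.30 to -0.01 over the alternative fits. Its starts in RefSeq span 12110 bases, and gene counts do not separate them. The processing and nuclear entry of SREBP-1c and ChREBP, through which both proteins are regulated, are not measured by mRNA.

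Mlxipl over Srebf1 was 2.34, 1.07, 0.996 and 1.52 in B4galt1 flox/flox replicates 1 to 4 and 3.64, 4.49 and 5.25 in the labelled livers. The lowest labelled liver exceeded the highest control. The ratio was 3.16-fold higher on average (log2 ratio 2.14 ± 0.27, SD, n = 3, against 0.48 ± 0.56, SD, n = 4), with a two-sided exact permutation p of 0.0571 and 0.0857 after adjustment over the 3 ratios.

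Thrsp, which encodes Spot 14, a small lipogenic protein that binds the MID1IP1 protein, rested on 1 mouse. Controls gave 5.96, 4.22, 6.51 and 7.37 CPM. The labelled livers gave 4.19, 6.33 and 19.6 CPM, so that replicate 1 lay just under the lowest control and only replicate 3 lay above the highest. The log2 fold change of 0.74 (SE 0.44, adjusted p = 0.263 from edgeR) turned to -0.20 without that replicate.

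**Figure D3:**
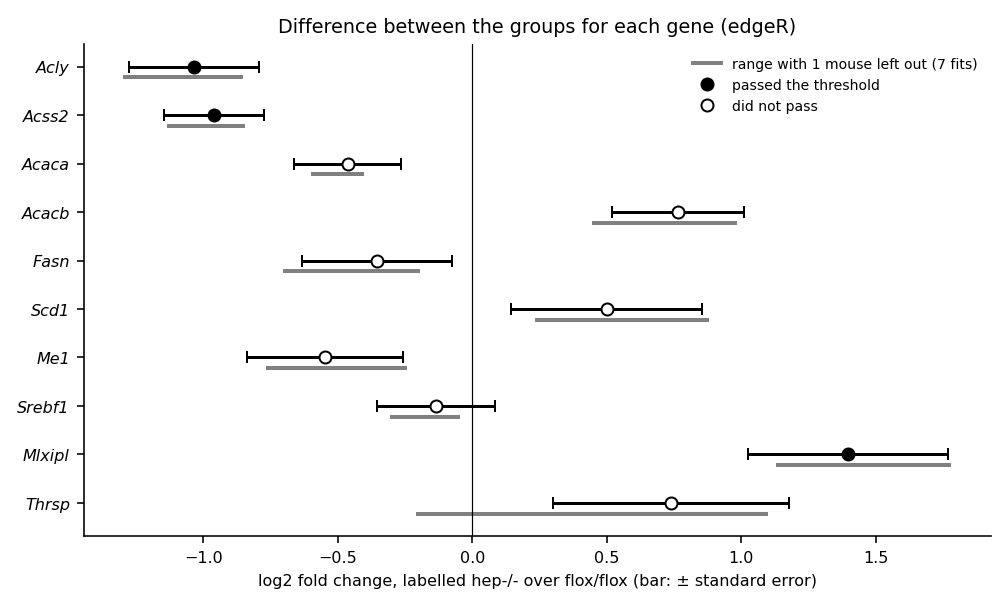
Log2 fold change of each gene, livers labelled B4galt1 hep-/- over B4galt1 flox/flox livers, from edgeR. Circles with bars are the estimate ± SE, filled where the gene passed, and grey lines span the 7 fits with 1 mouse left out. Acly and Acss2 stay below 0 and Mlxipl above 0 in all of these fits, and the line of Thrsp crosses 0.

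A gene short of the threshold is not shown to be equal between the groups. In simulated counts with the same numbers of mice, 36.9% of 103 genes changed by 1 on the log2 scale were recovered, and 97.9% of 97 genes changed by 2, so a change of the size seen for most of the 7 remaining genes could be missed.

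Levels were compared between genes by FPKM, which divides by gene length. Scd1 was the highest in controls, with a mean of 25.5 FPKM, followed by Acss2 at 17.0, Mlxipl at 12.5 and Acly at 10.4. Srebf1, Me1 and Thrsp lay between 5.66 and 8.0, and Fasn at 4.63, Acacb at 3.16 and Acaca at 2.50 came last. Neighbours in this order overlapped between mice except Me1 and Thrsp. In the labelled livers Scd1 at 33.1 and Mlxipl at 30.2 FPKM were at the top, Acss2 was at 7.91 and Acly at 4.57 FPKM. FPKM was divided by a total that includes the mitochondrially encoded transcripts, so a level set across the groups on this scale moves with their share.

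**Figure D4:**
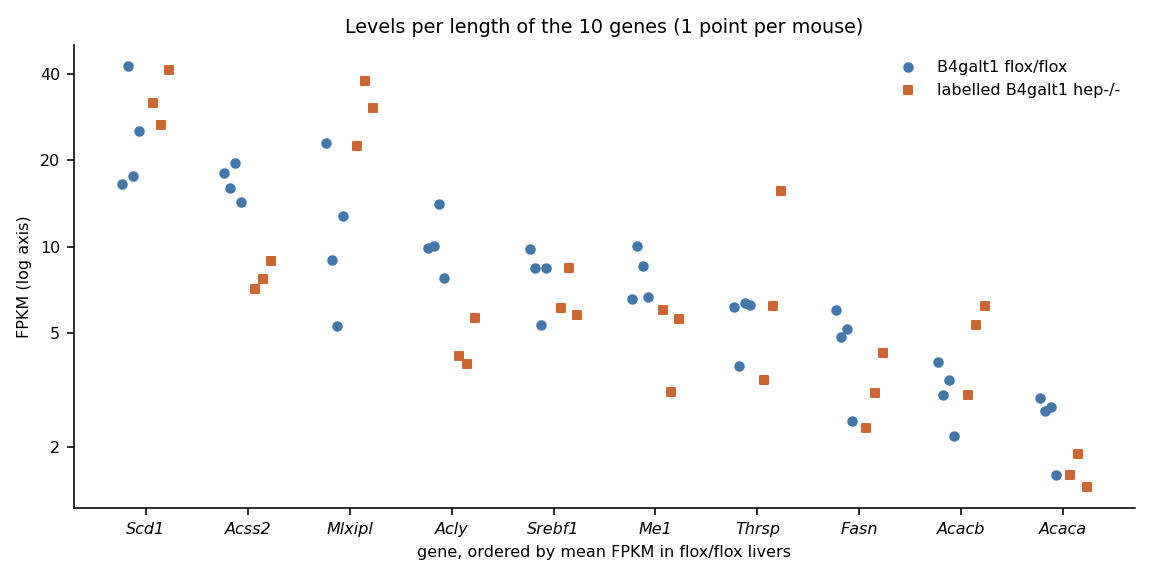
FPKM of the 10 genes on a log axis, 1 point per mouse, ordered by the mean in B4galt1 flox/flox livers (blue circles; orange squares are livers labelled B4galt1 hep-/-). Mlxipl lies at 22.3 FPKM or more in all 3 labelled livers, but control replicate 1, at 23.0 FPKM, overlaps them. The values of Acss2 and Acly in the labelled livers lie below every control.

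Within the groups, the 10 genes did not move as one. After the mean of each group was subtracted from log2 CPM, Acly and Acss2 moved together over the 7 mice (Pearson r = 0.955), as did Acacb and Fasn (0.889) and Srebf1 and Mlxipl (0.821). Acly and Srebf1 moved oppositely (r = -0.776). These are descriptions over 7 mice whose values share a library and its scaling. Replicate 3 labelled B4galt1 hep-/- had the highest summed level of the 10 genes, 707 CPM, against 503 and 509 CPM in the other labelled livers and 429 to 568 CPM in controls. Among 7581 genes at or above median expression, those closest to the mean of the 10 genes over the 7 mice by the same measure were Cd81 (r = 0.994), Dlst (0.989), Slco2a1 (0.988), Arid5b (0.984) and Lrrc8d (0.983). With so many genes ranked over 7 mice, high r values arise from the ranking alone. That mean stood furthest above its group in labelled replicate 3 (0.38 on the log2 scale).

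Next, the supply of carbon to the acetyl-CoA step was examined. The counts of this list and of those that follow are small and stand beside the same shares over all genes tested, 7.83% lower and 8.0% higher, and nothing particular to a list is read from them. Of 15 genes of citrate and acetyl-CoA supply, 3 fell and 0 rose (median log2 fold change -0.33), and 1 to 6 were lower over the 18 alternative fits. Pcx, pyruvate carboxylase, which fills the pool that citrate is made from, was at 451 to 580.5 CPM in controls and at 167 to 309 CPM in the labelled livers (log2 fold change -1.17, adjusted p = 0.0111 from edgeR). Aco1, the cytosolic aconitase, changed by -0.85, and Slc25a1, the carrier that exports citrate from mitochondria, by -0.78. Slc25a1 ran at 100.4 to 134 CPM in controls and at 46.4 to 79.5 CPM in the labelled livers, without overlap.

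Of 10 genes of NADPH supply, 3 fell and 0 rose, with a median of -0.33. These were Mthfd1 of folate metabolism (log2 fold change -0.85, adjusted p = 0.0195 from edgeR) and, from the pentose phosphate pathway, Taldo1 (-0.73, adjusted p = 0.0321 from edgeR) and Pgd (-0.62, adjusted p = 0.0424 from edgeR). With 1 mouse left out, Taldo1 passed in 2 of 7 fits and Pgd in 0 of 7. The count was 0 to 3 over the alternative fits.

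Carboxylase control gave 4 lower and 0 higher genes of 14, with a median of 0.18 and 2 to 4 lower in the alternative fits. Mid1ip1, whose product makes acetyl-CoA carboxylase polymerize and binds Spot 14, was at 13.1 to 20.5 CPM in controls and at 6.88 to 9.12 CPM in the labelled livers (log2 fold change -0.99, adjusted p = 0.0166 from edgeR). Prkaa2, a catalytic subunit of AMPK, the kinase that inhibits the carboxylases, changed by -1.07, and Hlcs, which attaches biotin to them, by -0.69 with an adjusted p of 0.0495 from edgeR. Acsf3, a mitochondrial malonyl-CoA synthetase, changed by -0.83 and is counted also under mitochondrial fatty acid synthesis. Of these, AMPK inhibits the carboxylases and the products of Mid1ip1 and Hlcs promote their activity.

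Regulators of SREBP and LXR gave 2 lower genes and 1 higher of 12, with a median of -0.25. Rxra, the partner receptor of LXR, was at 294 to 383 CPM in controls and at 128 to 162 CPM in the labelled livers (log2 fold change -1.15, adjusted p = 0.00605 from edgeR), and Srebf2, the regulator of sterol synthesis, changed by -0.68. Insig2, which holds SREBP in the endoplasmic reticulum, was at 121, 159.6, 161 and 168 CPM in controls and at 220, 223 and 627 CPM in the labelled livers, without overlap and with replicate 3 far above the rest (log2 fold change 1.23, adjusted p = 0.0327 from edgeR). Without replicate 3 the log2 fold change of Insig2 was 0.53 and did not pass (adjusted p = 0.107 from edgeR), and the list gave 3 lower genes and 0 higher. Scap, the SREBP escort (-0.35, adjusted p = 0.216 from edgeR), Insig1 (-0.43, 0.189) and Nr1h3, the gene of LXR alpha (-0.02, 0.943), did not pass.

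Among 7 partners of ChREBP, 0 fell and 2 rose, with a median of 0.26 and 0 to 2 higher in the alternative fits. Ogt and Oga, the enzymes that add and remove O-linked N-acetylglucosamine, changed by 0.76 and 0.74 (adjusted p = 0.0376 and 0.0181 from edgeR). Their activities are opposite, and both sat in the same direction as Mlxipl. Mlx, the binding partner of ChREBP, did not pass (0.26, adjusted p = 0.325 from edgeR). Of 10 other targets of ChREBP, 1 fell and 0 rose, with a median of -0.07. That 1 was Gpd1, the glycerol phosphate dehydrogenase, at -0.80 (adjusted p = 0.0335 from edgeR). Pklr, the pyruvate kinase of liver and a classical ChREBP target, was at 34.4 to 38.3 CPM in controls and at 18.5 to 37.1 CPM in the labelled livers (log2 fold change -0.36, adjusted p = 0.294 from edgeR).

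Of 11 other lipogenic targets of SREBP-1c, 3 fell and 0 rose, with a median of -0.53, and 0 to 6 were lower and 0 to 1 higher over the alternative fits. Fads2, the delta-6 desaturase, changed by -1.10 (adjusted p = 0.0202 from edgeR), and Dgat2, which makes triglyceride, by -0.81. Elovl6, which elongates palmitate (-0.43, adjusted p = 0.294 from edgeR), did not pass. Pnpla3, a lipid droplet protein gene, was at 0.117 to 0.506 CPM in controls and at 0.325, 1.63 and 1.09 CPM in the labelled livers, and it did not pass either (1.84, adjusted p = 0.0776 from edgeR). It passed with DESeq2 (1.85, adjusted p = 0.0397) and without labelled replicate 1 (2.24, adjusted p = 0.0492 from edgeR).

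Of the 24 genes that passed among the 10 and the lists of the pathway (cell type markers not included), 6 did so in each of the 7 fits with 1 mouse left out, namely Acly, Acss2, Mcat, Pcx, Prkaa2 and Rxra, and 18 missed the threshold in at least 1 of them. Without labelled replicate 3 those that missed it were Hlcs, Insig2, Mlxipl, Ogt and Pgd.

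**Figure D5:**
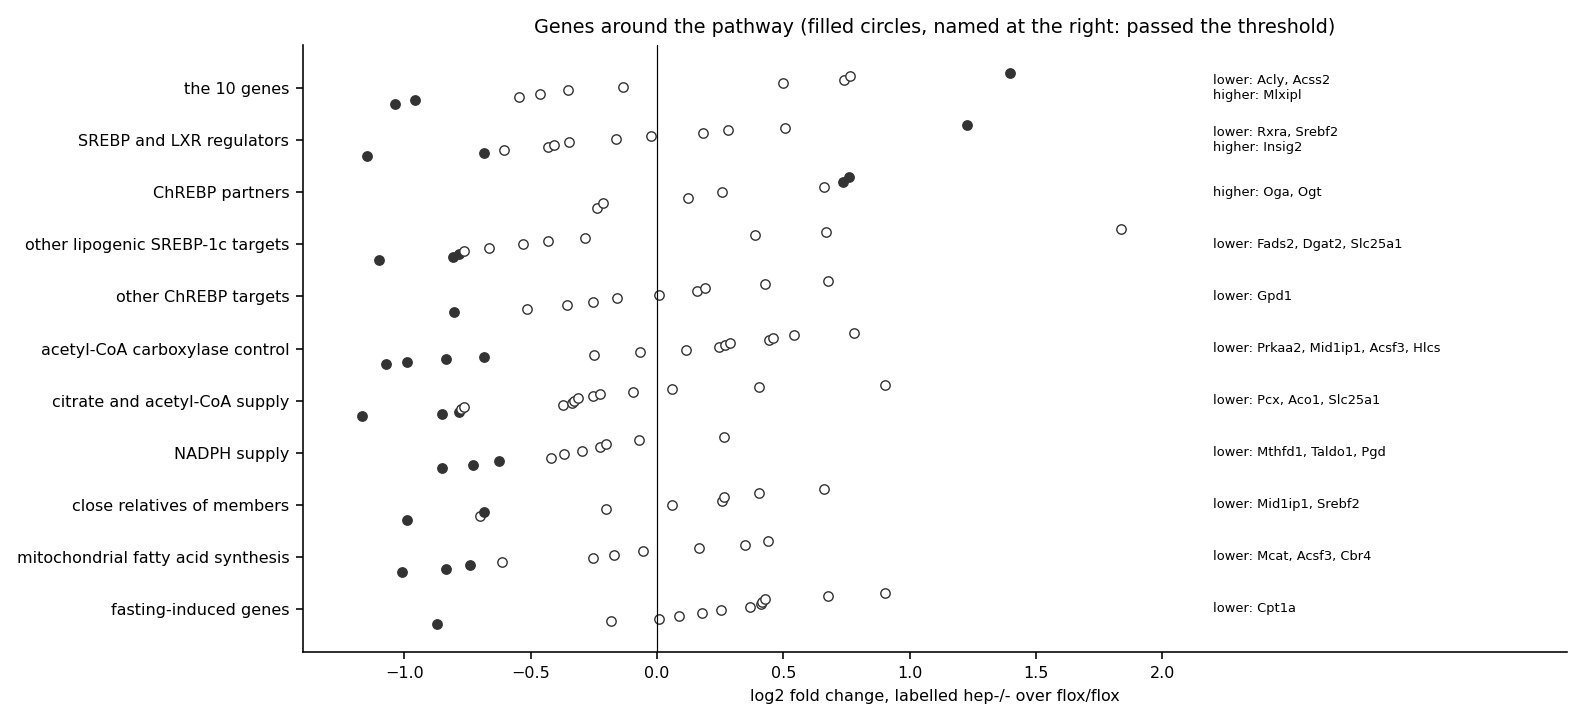
Log2 fold change, livers labelled B4galt1 hep-/- over B4galt1 flox/flox livers, of the genes tested in each hand-written list (1 circle per gene, filled where the gene passed). Lists overlap in a few genes. Genes that passed lie below 0 in most lists, and Mlxipl, Insig2, Ogt and Oga are the ones above 0.

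Close relatives of the 10 genes were listed apart, since sequence shared between copies could move reads. Of 9 tested, 2 fell (Srebf2 and Mid1ip1) and 0 rose, with a median of 0.06. Scd2, the second desaturase gene, was at 9.32 to 18.5 CPM in controls and at 8.41 to 9.57 CPM in the labelled livers and did not pass (log2 fold change -0.70, adjusted p = 0.0818 from edgeR). Scd3 and Scd4 stayed at 0.0649 CPM or less in every liver and were not tested. Mitochondrial fatty acid synthesis, a separate route that makes the lipoic acid precursor, gave 3 lower genes of 10 (Mcat at -1.01, Acsf3 at -0.83 and Cbr4 at -0.74) and 0 higher, with a median of -0.21. Of 12 genes that fasting induces in liver, 1 fell (Cpt1a, at -0.87) and 0 rose, with a median of 0.31.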

How the data were processed

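Liver RNA of 7 mice was analysed, 4 B4galt1 flox/flox and 3 carrying the label B4galt1 hep-/-, each as 1 library. That libraries are separate mice rests on the labels. Per the submitters' processing notes, fastp, HISAT2, HTSeq, DESeq2, R 3.2.0 and the build GRCm39 were used. Other versions, the order of steps and the strand setting are not given in the sources used here. The authors deposited counts, whole numbers per gene and mouse without normalization, and FPKM, which equals the count over a fixed gene length and the library's total. A total of 0 columns of sample values were left unused.

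Genes were kept by filterByExpr (minimum count 10, minimum total count 15), scaled by TMM and tested by the quasi-likelihood method of edgeR 4.0.16 (R 4.3.3) with a model of group alone and Benjamini-Hochberg adjustment over all genes tested. Standard errors came from the F statistic. Alternatives used DESeq2 1.42.0, RLE and upper-quartile scaling, counts without the 13 mitochondrially encoded genes, 2 other count filters, limma 3.58.1 on log2 FPKM with a pseudocount of 1 or 0.1 (genes reaching FPKM 1 in 3 mice), voom with sample quality weights, a replicate block, no fold change threshold, and each mouse left out. The setting without a fold change threshold is the main fit with that cut dropped, so it could not change a call for the 10 genes. A pseudocount understates the change of low genes. With 1 mouse left out, the others supply the spread.

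Group means of 3 FPKM ratios were compared by a two-sided exact permutation test over 35 splits. The 10 genes, from which the 3 ratios were formed, and all lists were chosen with earlier results of these data known. Among the lists, 1 gene is not reported here and was left out of its list's counts. The text names the 10 genes, B4galt1, up to 4 called genes per direction and list, a few further regulators and targets, and the 5 genes with the most similar pattern. Replicate numbers come from the labels and do not identify shared animals. Promoter sequences are from RefSeq. On simulated counts, 133 of 200 changed genes were recovered among 14925, with 5 false calls among 138. Counting error is small beside the spread between mice, whose common coefficient of variation was 0.301.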

Additional observations from a re-analysis of the deposited data

Results flagged for a closer look

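Of 13 sets of 4 control values (the 10 genes and the 3 ratios) examined for a value standing apart by Dixon's test, 2 did, where chance marks about 1 in 20 such groups. Acaca in B4galt1 flox/flox replicate 4 was at 18.3 CPM, beside 27.3 to 28.3 CPM in the other controls. Srebf1 in B4galt1 flox/flox replicate 3 was at 24.2 CPM, beside 41.1 to 44.2 CPM in the others. They are different mice.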

How the results depend on the processing

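The count of 2 lower lipogenic genes was the same in 18 of 18 alternatives, and so were the directions of 9 of the 10 genes. The count of higher ones was 2 in place of 1 with DESeq2, RLE scaling, upper-quartile scaling, without mitochondrially encoded genes and with either other count filter, where Acacb passed as well, and 0 to 2 with 1 mouse left out. Over all genes, 2404 were called, 885 to 2396 with 1 mouse left out, fewest without B4galt1 flox/flox replicate 2 (885), then without labelled replicate 2 (1199) and B4galt1 flox/flox replicates 3 (1405) and 4 (1552). The replicate number as a block gave 1267, with the same counts of 2 lower and 1 higher lipogenic genes. Samples with the same number deviated with correlations of -0.306, -0.019 and 0.07, so the numbers do not pair the mice. The log2 fold change of Thrsp ranged from -0.20 (without labelled replicate 3) to 1.09 with 1 mouse left out, and that of Nr1h3, near 0, was 0.014 with upper-quartile scaling, 0.081 with voom, and -0.106 to 0.058 with 1 mouse left out. The log2 ratios stayed above 0, at 0.86 to 1.44 for Acacb to Acaca, 1.50 to 1.91 for Mlxipl to Srebf1 and 0.62 to 1.26 for Scd1 to Fasn with 1 mouse left out, where an exact test on so few mice cannot reach a p below 0.05 and so bears on no call. On FPKM the median of all genes shifted from 0.02 to -0.14 (pseudocount 1) or -0.18 (pseudocount 0.1), with 24.5% and 23.6% of calls higher in place of 50.5%, and relative to that median Acly and Acss2 were still lower. The causes of these moves were not tested.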
